A study of Homo sapiens with 8 samples.

Results

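Transcript levels of 9 genes of glutathione supply and the NRF2 antioxidant response were followed in 2 human clear cell renal cell carcinoma lines, 769-P and CAKI-1, cultured with or without branched-chain amino acids (BCAAs). The genes are NFE2L2, GCLC, GCLM, NQO1, HMOX1, TXNRD1, SRXN1, CTH and CBS. They were taken by name, and all 9 were found among the 21845 genes listed for both lines. The study asked by RNA sequencing how BCAAs alter the transcriptome of renal cancer cells. Both lines came from a cell repository, and the labels name no genetic alteration made to them. Each was kept for 16 hours either in medium depleted of BCAAs or in medium that held all 3 BCAAs (valine at 0.17 mM, leucine and isoleucine at 0.38 mM each), which gave 4 groups of 2 libraries. The BCAA-depleted medium was based on amino acid-free RPMI 1640 with dialyzed serum, whereas routine growth had been in RPMI 1640 for 769-P and in MEM for CAKI-1. The labels do not say whether the libraries of a group came from separate cultures, so p-values measure only the spread between these libraries, which may be technical.

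Glutathione is the main low-molecular-weight thiol of the cell, built from glutamate, cysteine and glycine. Its first and rate-limiting step is catalysed by glutamate-cysteine ligase, made of the catalytic subunit GCLC and the modifier subunit GCLM. NRF2, encoded by NFE2L2, is a transcription factor that KEAP1 holds at low levels by directing its degradation. When oxidants or electrophiles block KEAP1, NRF2 pairs with a small MAF protein on antioxidant response elements of genes such as NQO1, HMOX1, TXNRD1 and SRXN1. Cysteine enters the pathway as imported cystine or through transsulfuration from methionine, in which CBS and then CTH act.

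Promoter sequences were looked at because an antioxidant response element is the site through which NRF2 is known to act on these genes. RefSeq promoter windows, from 250 bases before to 50 bases after 1 annotated start per gene, were at hand for 8 of the 9 genes. HMOX1 had none. That start need not be the outer end of the gene. Among these windows TXNRD1 alone has it there, and for the others it lies inside the gene span given below. For NFE2L2, GCLC, NQO1 and CBS the outer end falls outside the window. The element's core, TGACNNNGC, was searched on both strands and was found in 13.6% of 27305 such windows. It was present at 1 place in GCLM, at 2 in TXNRD1 and at 1 in CBS, and in none of the other 5 windows. Sequence outside these windows and other starts of the genes were not searched. A window without a match therefore does not show that a gene lacks the element. The GCLM and TXNRD1 windows are shown because their transcripts answered BCAAs in contrasting ways in the 2 lines. They lie at chr1:93909381-93909680 on the minus strand for GCLM and at chr12:104215529-104215828 on the plus strand for TXNRD1 (GRCh38.p14). Both read 5′ to 3′ along the gene, and capitals mark the matches to the core.
GCLM: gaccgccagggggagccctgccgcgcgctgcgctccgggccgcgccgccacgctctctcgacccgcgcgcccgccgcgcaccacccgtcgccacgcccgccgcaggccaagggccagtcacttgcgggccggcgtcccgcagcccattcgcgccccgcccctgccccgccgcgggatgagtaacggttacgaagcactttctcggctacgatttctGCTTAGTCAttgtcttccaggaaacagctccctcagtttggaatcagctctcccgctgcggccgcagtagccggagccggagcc
TXNRD1: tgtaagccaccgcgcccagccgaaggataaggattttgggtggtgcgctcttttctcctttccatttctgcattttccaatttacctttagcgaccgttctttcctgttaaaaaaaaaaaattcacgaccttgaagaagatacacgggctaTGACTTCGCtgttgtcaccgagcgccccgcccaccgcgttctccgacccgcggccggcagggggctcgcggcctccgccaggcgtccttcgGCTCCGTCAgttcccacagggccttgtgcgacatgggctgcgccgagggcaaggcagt
The GCLM match lay on the strand opposite to the gene, 34 bases before the start. In TXNRD1 a match on the gene's own strand began 99 bases before the start, and a second on the opposite strand 8 bases before it. The CBS match was on the opposite strand, 83 bases before the start. A core that amino acid response elements share, TGATGNAA, was present in 3.67% of all windows and in none of these 8. A match to such short letters is a description and not a binding site.

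The libraries held between 30979773 and 64256834 reads on listed genes. In 769-P the libraries with BCAA were the deeper ones, at 55829324 and 64256834 reads against 39062721 and 40130258 without, whereas in CAKI-1 the depths of the groups overlapped. The values given are normalised read counts, that is reads per gene divided by 1 size factor per library, set separately in each line. Of 10 renal epithelial and renal carcinoma markers, 7 had a mean of at least 50 in each line, PAX8 being among the well expressed ones, while the leukocyte and endothelial lists summed to at most 15.8 in any library. CA9, a classic marker of clear cell tumors, was not among the genes analysed in either line. In CAKI-1 the fibroblast list was well expressed, at summed values between 102480 and 149610, which came mostly from COL1A1. These sums were 125020 to 149610 with and 102480 to 120310 without BCAA. The renal list moved the other way in CAKI-1, with sums of 90091 to 95162 with and 129830 to 134370 without BCAA, and in 769-P it summed to 129780 to 133910 with and 139000 to 141320 without. The part of either list in the results was not tested. In bulk RNA, fewer cells that express a gene and less of its RNA per cell cannot be told apart.

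All 9 genes were measured in all 8 libraries, the fewest reads being those of CTH in 769-P, at 46 to 60 a library. Per kilobase of annotated exon, the normalised level of TXNRD1 was the highest of the 9 in both lines, at a mean of 12820 in 769-P and 6565 in CAKI-1. NQO1 followed at 6893 and 2020 and NFE2L2 at 1216 and 1290. In 769-P the order then ran through GCLM, HMOX1, GCLC, SRXN1, CBS and CTH. In that order NFE2L2 overlapped with GCLM over the 4 libraries, HMOX1 with GCLC, and CBS with CTH. In CAKI-1 the order after NFE2L2 was HMOX1, GCLM, CTH, GCLC, SRXN1 and CBS, with overlap only between HMOX1 and GCLM. CTH stood last in 769-P and sixth in CAKI-1. As a share of each library, CTH took a CPM (reads scaled to a fixed library total) of 0.716 to 1.46 in 769-P and of 15.02 to 18.0 in CAKI-1. For NQO1 the CPM was 435 to 482 in 769-P and 155 to 181 in CAKI-1. Shares in the 2 lines are set side by side as a description, since the tables were normalised separately.

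**Figure D1:**
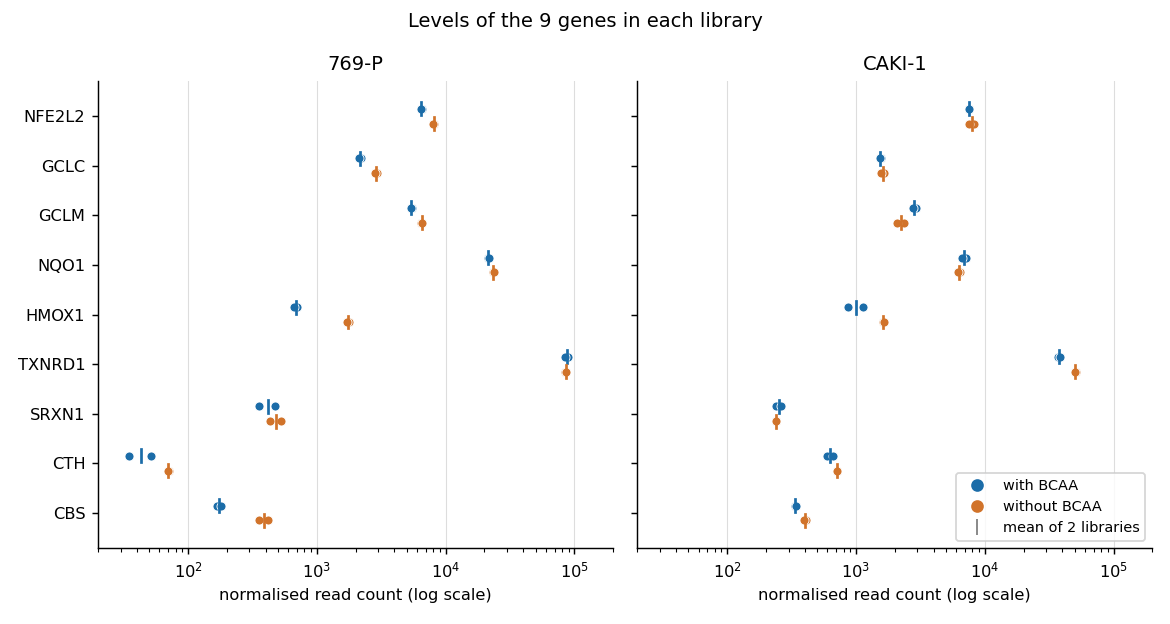
Normalised read count (log scale) of each of the 9 genes in 769-P (left) and CAKI-1 (right), with 1 point per library and a bar at the mean of 2 libraries. The points with and without BCAA stand clearly apart for HMOX1, CBS and CTH in 769-P, and for TXNRD1 and HMOX1 in CAKI-1. CTH in 769-P was not called.

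The first question was whether BCAAs altered these transcripts in 769-P. With BCAA, 6 of the 9 were lower (NFE2L2, GCLC, GCLM, NQO1, HMOX1 and CBS) and 3 were not called (TXNRD1, SRXN1 and CTH). The count fell to 3 without 769-P BCAA library 1, to 2 without 769-P BCAA library 2 and to 4 when 1 or the other library lacking BCAA was left out. None was higher by limma at an adjusted p of 0.05, at an unadjusted p of 0.05, or by edgeR or DESeq2 (0 in each case). Of 22391 tested genes, 38.4% were called, 20.3% higher and 18.2% lower. Among genes with a mean of at least 50, where all 9 lie, 60.5% were called, 32.5% higher and 28% lower. The median log2 fold change (with minus without BCAA) was -0.33 over the 9 genes and -0.02 over all tested genes. The libraries with and without BCAA did not overlap for 7 of the 9, against 67% of all tested genes and 82.6% of those with a mean of at least 50, so that this count stands near the background.

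In CAKI-1 fewer of the 9 were called. GCLM was higher with BCAA, HMOX1 and TXNRD1 were lower, and the other 6 were not called. There, 19.9% of 21347 tested genes were called, 10.8% higher and 9.05% lower, and with a mean of at least 50 the share was 32.1%, 17.6% higher and 14.6% lower. The median log2 fold change of the 9 genes was -0.06, against -0.01 over all tested genes. The libraries did not overlap for 8 of the 9, against 57.7% of all tested genes and 70% of those with a mean of at least 50. These 3 calls rested on every library: when any CAKI-1 library was left out, 0 of the 9 and 0 of all tested genes remained called by limma. In those fits between 4235 and 5687 genes had an unadjusted p under 0.05, and the smallest adjusted p of any gene lay between 0.0505 and 0.136.

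NFE2L2, the gene of NRF2 itself, lies on chromosome 2 (177227595 to 177392697, minus strand, GRCh38). A gene on the same strand, AC019080.1, shares 1054 of its 5979 exon bases and held 54 to 190 reads a library, against 5869 to 9088 for NFE2L2. In 769-P NFE2L2 itself measured 6498 and 6402 with BCAA and 8176 and 8010 without. The libraries without BCAA were all higher, a fold of 1.25 (log2 fold change -0.33 ± 0.04, SE; limma, adjusted p = 7.45e-05). In CAKI-1 the values were 7521 and 7562 with BCAA and 8211 and 7552 without. There the groups overlapped, and the difference was -0.06 (95% confidence interval -0.19 to 0.07; adjusted p = 0.53). The NFE2L2 effect was more negative in 769-P than in CAKI-1, with a difference of -0.26 (interaction term over all 8 libraries, adjusted p = 0.0174). That difference was no longer called (adjusted p between 0.0523 and 0.0833) without 769-P BCAA library 2, without either 769-P library lacking BCAA, or without CAKI-1 no BCAA library 2.

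The genes around NRF2 were described from a list of 10 regulators and partners. In 769-P, 3 were higher with BCAA, 6 lower and 1 not called, and the median log2 fold change was -0.52. In CAKI-1, 1 was higher, 5 lower and 4 not called, with a median of -0.12. Among all genes with a mean of at least 50, 32.5% were higher and 28% lower in 769-P, and 17.6% and 14.6% in CAKI-1. KEAP1, the adaptor that presents NRF2 for degradation, was 1.10-fold higher with BCAA in 769-P (adjusted p = 0.0428) and measured 3624 and 3709 with and 3697 and 3769 without in CAKI-1. BACH1, a repressor that competes for the same elements, was lower with BCAA in 769-P (log2 fold change -0.43) and in CAKI-1 (-0.25). MAFF, a small MAF partner, was 4.18-fold higher without BCAA in 769-P and 1.61-fold in CAKI-1. SQSTM1, the autophagy receptor that binds KEAP1, was 1.88-fold higher without BCAA in 769-P and 1.84-fold in CAKI-1. NFE2L1, a related transcription factor of proteasome genes, had log2 fold changes of -1.32 and -0.33, and its effect differed between the lines (adjusted p = 1.41e-06). The interaction term was called for 4 of the 10 regulators, all more negative in 769-P. It was called for 31.8% of all genes with a mean of at least 50 in both lines, so that this count stands near the background.

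GCLC and GCLM, the subunits of glutamate-cysteine ligase, moved the same way in 769-P and not in CAKI-1. GCLC (chromosome 6, 53497341 to 53616970, minus strand) measured 2211 and 2134 with BCAA and 2955 and 2811 without in 769-P. This was a fold of 1.33 in favor of the cells without BCAA (log2 fold change -0.41 ± 0.06, SE; limma, adjusted p = 0.000104). Without either 769-P library with BCAA the call was lost (adjusted p = 0.0562 and 0.0636). In CAKI-1 GCLC measured 1570 and 1522 with BCAA and 1656 and 1571 without, a difference of -0.06 (95% confidence interval -0.22 to 0.09; adjusted p = 0.62). The groups just failed to overlap there, with 1570 against 1571 for the nearest libraries. The effects differed by -0.35 (95% confidence interval -0.54 to -0.16; interaction adjusted p = 0.0117), a call lost without 769-P BCAA library 2 (adjusted p = 0.0512) or 769-P no BCAA library 1 (adjusted p = 0.0643). A long noncoding gene on the same strand, AL033397.1, shares 529 of the exon bases of GCLC and held 20 to 49 reads in the 769-P libraries.

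GCLM (chromosome 1, 93885205 to 93909456, minus strand) went in opposite directions in the 2 lines. The 769-P values were 5496 and 5357 with BCAA and 6474 and 6587 without (log2 fold change -0.27 ± 0.05, SE; limma, adjusted p = 0.000501). In CAKI-1 it measured 2907 and 2766 with BCAA and 2366 and 2071 without (0.36 ± 0.08; adjusted p = 0.00645). The groups did not overlap in either line. The effects differed by -0.62 (95% confidence interval -0.82 to -0.43; adjusted p = 0.000237), and this difference stayed called whichever library was left out. Only 125 genes, 0.644% of the 19406 tested in both lines, were called lower with BCAA in 769-P and higher in CAKI-1. The call within 769-P was lost without BCAA library 2 or either library lacking BCAA (adjusted p between 0.0525 and 0.0667), and the call within CAKI-1 was lost under quantile normalization (adjusted p = 0.0622).

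Other genes that make, recycle or break down glutathione did not share 1 direction. Of 9 tested in 769-P, 4 were higher with BCAA, 4 lower and 1 not called (median log2 fold change 0.12). In CAKI-1, 1 was higher, 1 lower and 7 not called, with a median of -0.03. Among all genes with a mean of at least 50, 60.5% were called in 769-P and 32.1% in CAKI-1. GSS, which completes the tripeptide, had log2 fold changes of 0.12 (adjusted p = 0.0812) in 769-P and 0.15 (adjusted p = 0.103) in CAKI-1. GSR, which reduces oxidized glutathione, was 1.68-fold higher with BCAA in 769-P and had a log2 fold change of 0.14 (adjusted p = 0.165) in CAKI-1. CHAC1, which cleaves glutathione and is also a target of the amino acid response, measured 158 and 156 with BCAA and 2103 and 2122 without in 769-P. That was 13.3-fold higher without BCAA. In CAKI-1 CHAC1 measured 822 and 1004 with BCAA and 951 and 1237 without, with overlapping groups. CHAC2, a second cleaving enzyme, was higher with BCAA in 769-P (log2 fold change 1.25) and in CAKI-1 (0.99). OPLAH, which opens 5-oxoproline formed in glutathione breakdown, was lower with BCAA in 769-P (-1.76) and in CAKI-1 (-0.37).

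HMOX1, heme oxygenase 1, which degrades heme to biliverdin, iron and carbon monoxide, had the largest called effect of the 9 genes in each line, as the genes were counted. For CBS summed with its near-identical copy CBSL, described below, the effect in 769-P was larger (log2 fold change -1.43). HMOX1 lies on chromosome 22 (35380361 to 35394214, plus strand). In 769-P the libraries read 700 and 667 with BCAA and 1771 and 1719 without, 2.55-fold higher without BCAA (log2 fold change -1.35 ± 0.07, SE; limma, adjusted p = 2.79e-08). The CAKI-1 values were 871 and 1126 with BCAA and 1609 and 1657 without, 1.65-fold higher without BCAA (-0.72 ± 0.11; adjusted p = 0.000777). The groups stood apart in each line, although the CAKI-1 libraries with BCAA were the more spread (SD 180). HMOX1 was the sole gene of the 9 called lower in both lines, as were 5.83% of all genes tested in both. Its effect was more negative in 769-P (difference -0.63, 95% confidence interval -0.93 to -0.33; interaction adjusted p = 0.00574), and this difference stayed called whichever library was left out.

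NQO1, a quinone reductase and one of the most used markers of NRF2 activity, changed little. It lies on chromosome 16 (69706996 to 69726951, minus strand), where an antisense gene shares 575 of its exon bases. The 769-P libraries gave 21176 and 21607 with BCAA and 23379 and 23554 without (log2 fold change -0.13 ± 0.04, SE; limma, adjusted p = 0.0148). That call was lost when any 769-P library was left out (adjusted p between 0.0614 and 0.173), and also under median centring and quantile normalization. In CAKI-1 the libraries read 7131 and 6594 with BCAA and 6379 and 6190 without (0.13, 95% confidence interval -0.01 to 0.26; adjusted p = 0.179). The difference between the lines, -0.26, had an adjusted p of 0.0158. It was not called under quantile normalization (-0.14, adjusted p = 0.16), without 769-P BCAA library 1, without either 769-P library lacking BCAA, or without CAKI-1 no BCAA library 2.

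TXNRD1, cytosolic thioredoxin reductase, was the sole gene of the 9 with a more negative effect in CAKI-1 than in 769-P. The gene lies on chromosome 12 (104215779 to 104350305, plus strand). The CAKI-1 libraries gave 37176 and 38063 with BCAA and 51237 and 49677 without, 1.34-fold higher without BCAA (log2 fold change -0.42 ± 0.05, SE; limma, adjusted p = 0.000305). In 769-P it measured 89350 and 84227 with BCAA and 84886 and 85604 without, and the values without lay between those with. The 769-P difference was 0.03 (95% confidence interval -0.06 to 0.11; adjusted p = 0.662). It was called higher under quantile normalization alone (0.20, adjusted p = 0.014), and fell to -0.02 without 769-P BCAA library 1. The effects differed by 0.45 (95% confidence interval 0.31 to 0.59; interaction adjusted p = 0.000254), which stayed called whichever library was left out.

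SRXN1, sulfiredoxin, which restores overoxidized peroxiredoxins, showed no call in either line. It lies on chromosome 20 (646615 to 653370, minus strand). The 769-P values were 475 and 354 with BCAA and 527 and 430 without, with overlapping groups (log2 fold change -0.21, 95% confidence interval -0.54 to 0.11; limma, adjusted p = 0.29). In CAKI-1 it measured 240 and 264 with BCAA and 239 and 238 without (0.08, -0.22 to 0.38; adjusted p = 0.748). A second gene on the same strand, AL121758.1, shares 2292 of the 2698 exon bases of SRXN1, so that reads counted for SRXN1 are uncertain. AL121758.1 itself held 2 to 7 reads in the 769-P libraries.

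CTH, cystathionine gamma-lyase, which releases cysteine from cystathionine, was not called in either line. It lies on chromosome 1 (70411218 to 70439851, plus strand). In 769-P the libraries read 34.9 and 51.3 with BCAA and 70.8 and 69.7 without (log2 fold change -0.72, 95% confidence interval -1.37 to -0.07; limma, adjusted p = 0.0791). The groups did not overlap, but the libraries with BCAA were widely spread for so low a gene. With the spread estimated from all 8 libraries the same difference was called (adjusted p = 0.00629). The CAKI-1 values were 591 and 664 with BCAA and 712 and 712 without (-0.18, 95% confidence interval -0.39 to 0.03; adjusted p = 0.22). The effects differed by -0.53 (95% confidence interval -1.10 to 0.03; adjusted p = 0.176).

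CBS, cystathionine beta-synthase, which joins homocysteine and serine, was lower with BCAA in 769-P. It lies on chromosome 21 (43053191 to 43076943, minus strand). The 769-P libraries gave 167 and 180 with BCAA and 420 and 357 without, 2.23-fold higher without BCAA (log2 fold change -1.16 ± 0.14, SE; limma, adjusted p = 2.98e-05). Without either 769-P library with BCAA the call was lost (adjusted p = 0.0692 and 0.0635). In CAKI-1 the libraries read 336 and 342 with BCAA and 408 and 398 without (-0.25, 95% confidence interval -0.49 to -0.002; adjusted p = 0.156). The effects differed by -0.91 (interaction adjusted p = 0.00264), and leaving out any library kept that call.

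The CBS values carry a particular uncertainty, since the reference holds a near-identical copy, CBSL, on the same chromosome (6444869 to 6468040, minus strand). Of all 50-base stretches of CBS transcripts, 54.5% also occur in CBSL, and 91% of those of CBSL occur in CBS. How reads matching both were counted is not given in the sources used here. CBSL measured 96.3 and 97.5 with BCAA and 360 and 325 without in 769-P, and at most 19.3 in CAKI-1. CBSL took 35.2% to 47.7% of the summed value in 769-P and 2.54% to 4.63% in CAKI-1. The sum of both was 263 and 277 with BCAA and 780 and 682 without in 769-P, a log2 fold change of -1.43 (limma, adjusted p = 6.2e-07). In CAKI-1 the sum was 344 and 351 with BCAA and 426 and 417 without (-0.28, adjusted p = 0.109). The difference between the lines was -1.16 for the sum (adjusted p = 0.000142), a comparison added after the values were seen.

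**Figure D2:**
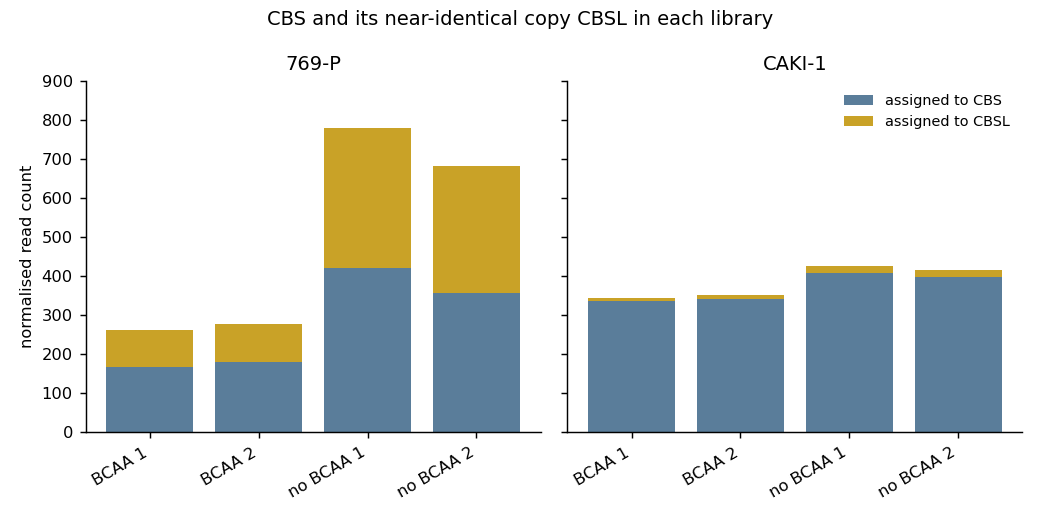
Normalised read count of CBS (lower part of each bar) and CBSL (upper part) in each library of 769-P (left) and CAKI-1 (right). The summed value is 263 and 277 with BCAA and 780 and 682 without in 769-P, and lies between 344 and 426 in CAKI-1, where CBSL is a thin slice.

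Set side by side, the effect of BCAAs differed between the lines for 7 of the 9 genes (interaction term, limma), as it did for 21.1% of 19406 genes tested in both and for 31.8% of those with a mean of at least 50. The count was 4 without 769-P no BCAA library 1, and between 5 and 7 without any other library. The effect was more negative in 769-P for NFE2L2, GCLC, GCLM, NQO1, HMOX1 and CBS, and more negative in CAKI-1 for TXNRD1. For SRXN1 and CTH the difference was not called. At a minimum of 1.5-fold, the called effects were HMOX1 and CBS in 769-P and HMOX1 in CAKI-1. The share of all genes that pass this fold is not given here, so these counts have no background beside them. The 2 lines differ in routine medium as well as in origin, and these cannot be told apart here. Depth moved with condition in 769-P, and after all libraries were thinned to 30979773 reads the same number of the 9 genes, 6, was called there.

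**Figure D3:**
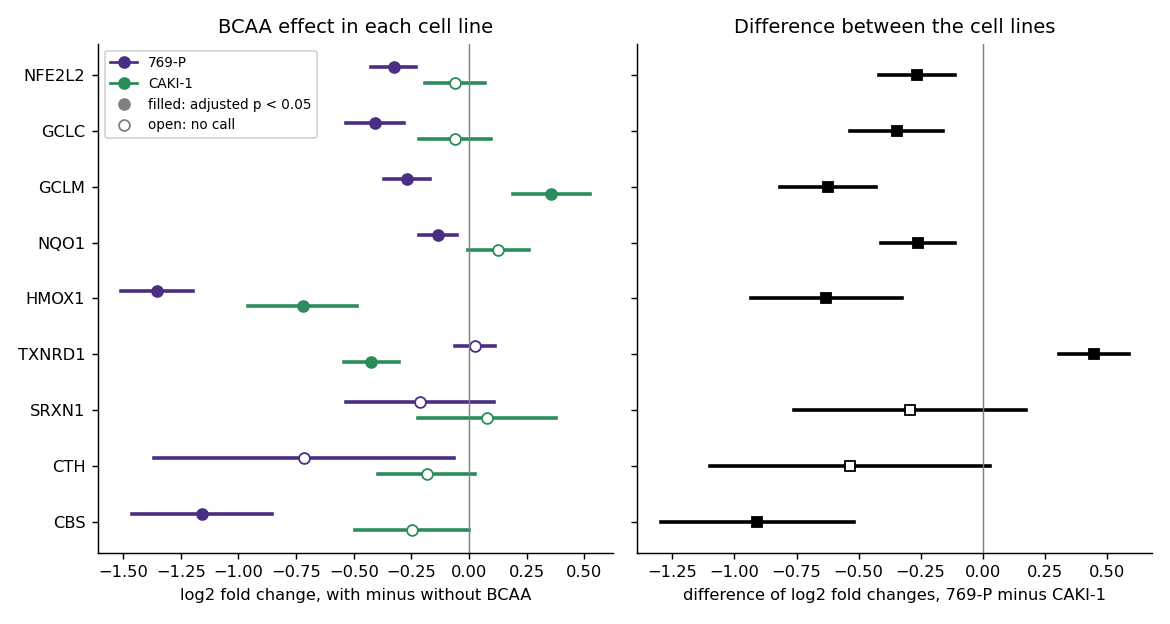
Left, log2 fold change (with minus without BCAA) of the 9 genes in 769-P and CAKI-1, with 95% confidence intervals (limma), filled points having an adjusted p under 0.05. Right, the difference between the lines with its interval; 7 of the 9 are filled, TXNRD1 being the sole positive value, at 0.45.

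Other genes known as NRF2 targets were divided in their response. Of 25 tested in 769-P, 7 were higher with BCAA, 9 lower and 9 not called (median log2 fold change -0.01). In CAKI-1 4 were higher, 5 lower and 16 not called, with a median of -0.03. The called share of all genes with a mean of at least 50 was 60.5% in 769-P and 32.1% in CAKI-1. AKR1B10, whose mean was below that limit in CAKI-1, was not called there. SLC7A11, the cystine carrier that feeds glutathione synthesis, measured 3514 and 3255 with BCAA and 15113 and 15225 without in 769-P, a fold of 4.48 in favor of the cells without BCAA (adjusted p = 5.68e-11). The CAKI-1 libraries gave 1794 and 1419 with and 1505 and 1925 without, with overlapping groups, and the effects differed by -2.07 (adjusted p = 8.19e-07). AKR1C2, an aldo-keto reductase, was 1.83-fold higher with BCAA in CAKI-1 (adjusted p = 0.0201) and had a log2 fold change of 0.14 (adjusted p = 0.223) in 769-P.

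The enzymes that use glutathione are set beside the genes with a mean of at least 50. Of those, 60.5% were called in 769-P (32.5% higher, 28% lower) and 32.1% in CAKI-1 (17.6% higher, 14.6% lower). The list also counts GPX2 and GSTM2, whose means were below that limit in 769-P and which were not called. GPX2 was below it in CAKI-1 as well. Of 20 glutathione peroxidases, transferases and glutaredoxins tested there, 9 were higher with BCAA, 3 lower and 8 not called (median log2 fold change 0.38). In CAKI-1, 4 of 22 were higher, 7 lower and 11 not called, with a median of -0.17. GLRX, a glutaredoxin, was 2.79-fold higher with BCAA in 769-P, and its effect differed from that in CAKI-1 (adjusted p = 5.12e-05). GSTM3, a glutathione transferase, was 2.20-fold higher with BCAA in 769-P. GLRX5, a mitochondrial glutaredoxin of iron-sulfur cluster assembly, was higher with BCAA in both lines (log2 fold changes 0.52 and 0.52). GSTZ1, a transferase of tyrosine breakdown, was 1.32-fold higher without BCAA in CAKI-1. GSTP1 was analysed in CAKI-1 alone, where its log2 fold change was 0.26.

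Among thioredoxin, peroxiredoxin, superoxide dismutase and catalase genes in 769-P, 10 of 16 were higher with BCAA, 3 lower and 3 not called (median log2 fold change 0.40). In CAKI-1 5 were higher, 3 lower and 8 not called, with a median of 0.10. Of all genes with a mean of at least 50, 32.5% were higher in 769-P and 17.6% in CAKI-1. The list also counts PRDX2, whose mean was below that limit in 769-P and which was not called. The peroxidase PRDX1 was 1.40-fold higher with BCAA in 769-P and 1.38-fold in CAKI-1, and PRDX3, its mitochondrial relative, 1.42-fold and 1.33-fold. TXN, thioredoxin itself, was 1.17-fold higher with BCAA in 769-P (adjusted p = 0.00102) and had a log2 fold change of 0.15 (adjusted p = 0.0728) in CAKI-1. TXNIP, an inhibitor of thioredoxin, was 5.85-fold higher without BCAA in 769-P and 2.19-fold in CAKI-1. SOD2, the mitochondrial superoxide dismutase, was 2.59-fold higher without BCAA in 769-P and had a log2 fold change of -0.27 (adjusted p = 0.0647) in CAKI-1.

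**Figure D4:**
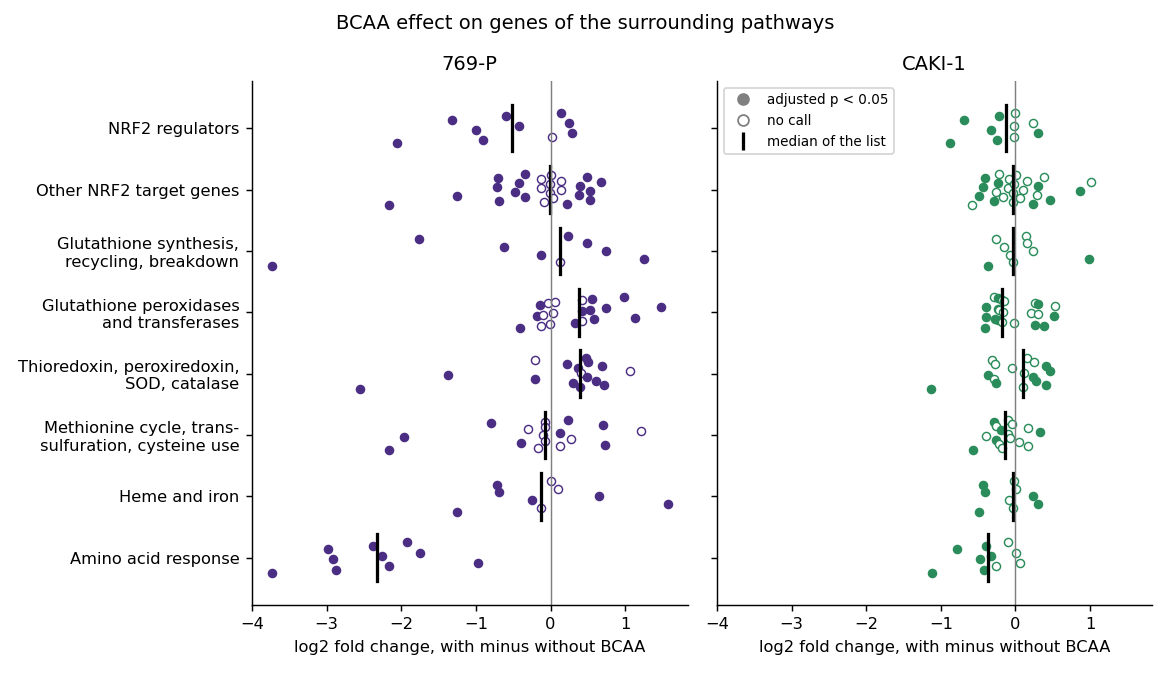
Log2 fold change (with minus without BCAA) of each gene of the 8 surrounding lists in 769-P (left) and CAKI-1 (right), filled where the adjusted p is under 0.05, with a black bar at the median of each list. The amino acid response list has medians of -2.32 in 769-P and -0.36 in CAKI-1, and the other lists have medians between -0.52 and 0.40.

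Among methionine cycle, transsulfuration and cysteine genes, 4 of 17 were higher with BCAA in 769-P, 4 lower and 9 not called. In CAKI-1, 1 of 16 was higher, 4 lower and 11 not called, and the medians were -0.07 and -0.14. The share called among all genes with a mean of at least 50 was 60.5% in 769-P and 32.1% in CAKI-1. MAT1A and BHMT, whose means were below that limit in 769-P, were not called there. MAT2A, which makes S-adenosylmethionine, was lower with BCAA in 769-P (log2 fold change -0.40) and in CAKI-1 (-0.27). SLC3A2, the partner chain of the cystine carrier, was 3.91-fold higher without BCAA in 769-P and measured 10630 and 11151 with and 11102 and 11279 without in CAKI-1. MPST, a sulfur transferase, was 1.75-fold higher without BCAA in 769-P, and had a log2 fold change of -0.25 (adjusted p = 0.0575) in CAKI-1. SQOR, which oxidizes hydrogen sulfide, was higher with BCAA in 769-P (0.24) and lower in CAKI-1 (-0.29), and the effects differed (adjusted p = 0.00434).

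In the heme and iron list, 2 of 9 were higher with BCAA in 769-P, 4 lower and 3 not called, and in CAKI-1 2 were higher, 3 lower and 4 not called. The medians were -0.13 and -0.03. With a mean of at least 50, 60.5% of all genes were called in 769-P and 32.1% in CAKI-1. FTH1 and FTL, the chains of the iron store ferritin, were lower with BCAA in both lines, as HMOX1 was. FTH1 was 2.38-fold higher without BCAA in 769-P and 1.41-fold in CAKI-1, and FTL 1.61-fold and 1.35-fold. SLC48A1, a heme transporter, was 1.64-fold higher without BCAA in 769-P and measured 2206 and 2078 with and 2172 and 2197 without in CAKI-1. The other heme oxygenase gene, HMOX2, was under the minimum mean value in 769-P and was not analysed in CAKI-1.

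The amino acid response list, which holds ATF4 and genes that ATF4 is known to induce when amino acids are short, is the one nearest to the treatment. In 769-P 10 of 10 were lower with BCAA (median log2 fold change -2.32), and in CAKI-1 6 of 10 were lower and 4 not called (median -0.36). Of all genes with a mean of at least 50, 28% were lower in 769-P and 14.6% in CAKI-1. ATF4 measured 15887 and 16581 with BCAA and 32276 and 31461 without in 769-P, and 16462 and 17194 against 22678 and 22594 in CAKI-1. The ATF4 effects were -0.97 and -0.43 and differed (adjusted p = 4.75e-05). For 10 of 10 genes of the list the effect was more negative in 769-P. CHAC1 and SLC7A11, which belong to this list and to those of glutathione or cysteine, were among the 4 not called in CAKI-1.

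The genes whose profile over the 8 libraries was nearest to each of the 9 were sought among 11813 genes, by the root mean square difference of log2 values centred within each line. Nearest to NFE2L2 were SLC39A6 (0.02), SMYD2 (0.02) and SOX12 (0.02). For GCLC the nearest was JOSD1 (0.02) and for NQO1 it was DDHD2 (0.02). For GCLM they were SLTM (0.05), GOLT1B (0.05) and PITPNM1 (0.05), each with a negative effect in 769-P and a positive effect in CAKI-1. HMOX1 was followed most closely by RBCK1 (0.05) and THBD (0.07). TXNRD1 was followed by LRRC61 (0.02), PEMT (0.03) and GSTZ1 (0.03), of which GSTZ1 belongs to the glutathione transferase list. For SRXN1 the nearest was ADCY9 (0.05), for CTH DHRS4L2 (0.06) and for CBS OGT (0.05). With 2 libraries per group such profiles are set mostly by the 2 effects, and many genes come close to them.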

How the data were processed

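RNA sequencing of 8 libraries was used, 2 per group. Per the submitters' processing notes, Trim Galore, TopHat2 2.1.0, SAMtools 1.3.1, HTSeq 0.6.0, DESeq and DESeq2 were used with hg38. The annotation, the strand setting and the handling of reads that match several genes are not given in the sources used here. The authors deposited a signal per gene for each line, which is reads divided by a size factor per library (0.777 to 1.32). Every value (100%) was whole in reads within 0.01. Depth was 30979773 to 64256834 reads, and CTH in 769-P rested on the fewest, 46 to 60 a library. Symbols and positions came from GENCODE 29.

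Within each line, limma 3.58.1 (R 4.3.3) was fitted on log2(value + 1) over all genes with a mean value of 1 or more, with a trended prior, without a replicate block, and with Benjamini-Hochberg adjustment at 0.05. Fold changes are on that scale. The difference between lines was the interaction term over 8 libraries. Counts were recovered as whole reads for edgeR 4.0.16 and DESeq2 1.42.0. With 2 against 2, an exact permutation test cannot go below p = 0.333. The tests were checked on simulated data.

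The 9 genes, the lists and the tests were chosen with earlier results of these data known. Named were the 9 genes, CBSL, 10 fixed genes, the 3 with the largest called change (mean at least 50) per list and line, of which some are given by counts alone, and the 3 nearest profiles per gene. Some genes that this rule names are not reported here. Pseudocount, filter, scaling, depth, spread, tool, threshold and omitted libraries were varied.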

Additional observations from a re-analysis of the deposited data

Results flagged for a closer look

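The BCAA effect differed between 769-P and CAKI-1 for 7 of the 9 genes by the interaction term of limma over 8 libraries, against 21.1% of all genes tested in both lines and 31.8% of those with a mean of at least 50. Without 769-P no BCAA library 1 the count was 4. The difference (769-P minus CAKI-1, log2) was -0.26 for NFE2L2, -0.35 for GCLC, -0.62 for GCLM, -0.26 for NQO1, -0.63 for HMOX1, 0.45 for TXNRD1 and -0.91 for CBS. Adjusted p-values ran from 0.000237 for GCLM to 0.0174 for NFE2L2. In 6 of the 7 the more negative effect was in 769-P, and in TXNRD1 it was in CAKI-1. GCLM was called in opposite directions in the 2 lines. Groups of 2 libraries are too small to test for a library that stands apart.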

How the results depend on the processing

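Of 489 values of single genes under an alternative, 438 kept their direction and their side of the threshold, 47 were no longer called, 3 became called and 1 turned its sign. The sign turned for TXNRD1 in 769-P, which was not called, and whose value ran from -0.017 without 769-P BCAA library 1 to 0.068 without library 2. Leaving out 1 library left 2 to 4 of the 9 genes called in 769-P (6 with all libraries), 0 to 0 in CAKI-1 (3 with all), and 4 to 7 with a called difference between the lines (7 with all). These fits hold fewer libraries and assume that a lone library varies like the other group, and of all tested genes 13.3% to 16.6% of genes were called in 769-P and 0% in CAKI-1. Requiring at least 1.5-fold left 2 genes called in 769-P, 1 in CAKI-1 and 3 differences, without a share over all genes to set beside these counts. NQO1 in 769-P was no longer called under median centring and quantile normalization, and GCLM in CAKI-1 under quantile normalization. The cause was not tested. Same-numbered libraries did not deviate together (correlation of deviations -0.08 in 769-P and 0.02 in CAKI-1). The labels do not say whether the numbers pair the samples, and with 2 libraries per group these correlations cannot decide it. With the replicate block, 6 of the 9 genes were called in 769-P, 3 in CAKI-1 and 7 differences, as without it. Counting without CBS and SRXN1, an alternative chosen after seeing the data, left 5, 3 and 6. Under every scaling tried, the median over all tested genes shifted by less than 0.1.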
